A study of Mus musculus with 26 samples.

Results

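Receptors for RFamide peptides were followed in gonadotropin-releasing hormone (GnRH) neurons of the mouse. The 4 receptor genes Kiss1r, Npffr1, Npffr2 and Prlhr were taken by symbol from a table of 23107 genes, and all 4 were present and passed the filter on low counts. The data came from translating ribosome affinity purification with sequencing (TRAP-seq), in which ribosomes of a chosen cell type carry a GFP tag and are pulled down with the mRNA they hold. GnRH CRE males had been bred to females with a floxed L10a-GFP allele, so that Cre driven by GnRH switched on the tagged ribosomal protein L10a-GFP in the GnRH neurons of their offspring. Every group shared this genotype, and no untagged mice were among the samples used here. Mice were 55 to 165 days old, and punches of the preoptic area of the hypothalamus from 5 to 7 mice were pooled for each sample. The 13 pools were 3 of intact females in diestrus, 3 of ovariectomized females, 4 of intact males and 3 of orchidectomized males. Each pool gave an immunoprecipitate, enriched for GnRH neurons, and a supernatant, depleted of them, and thus 26 libraries in 8 groups.

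RFamide peptides end in an amidated arginine and phenylalanine and act on G protein-coupled receptors. Kisspeptin, the product of Kiss1, acts on KISS1R, which couples to Gq and phospholipase C and excites GnRH neurons; mice and humans without this receptor fail to enter puberty. NPFFR1 (also called GPR147) binds the RFamide-related peptides made from Npvf, the mammalian counterpart of avian gonadotropin-inhibitory hormone, and couples mainly to Gi/o, which restrains adenylyl cyclase. NPFFR2 prefers neuropeptide FF from Npff and PRLHR binds prolactin-releasing peptide from Prlh. A further receptor of the family, QRFPR, binds the peptide from Qrfp. The comparison of both fractions asked which of these receptors are enriched in GnRH neurons, and the comparisons of conditions asked whether sex or removal of the gonads altered them.

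Total counts ran from 27217253 to 56668582 per library. Levels are given as CPM, the count scaled to the library's size after TMM normalization in edgeR. Gnrh1, the gene of the hormone, was higher in the immunoprecipitate in 13 of 13 pools, at 3174 to 20931 CPM against 47.5 to 1579 CPM, and 3 of 4 tested marker genes of GnRH neurons (Gnrh1, Six6 and Isl1) rose. Chgb, the other of these markers, was not called (log2 -0.10). Of all genes tested, edgeR called 21.3% higher and 21.6% lower in the immunoprecipitate at an adjusted p under 0.05. Libraries stood apart in Gnrh1. The immunoprecipitates of the 4 pools with label numbers 1 to 10, all of intact mice, held Gnrh1 at 16896 to 20931 CPM, and the 9 numbered 11 to 30 at 3174 to 8774 CPM. The supernatant of intact female replicate 2 held Gnrh1 at 1579 CPM, against at most 454 CPM in the other 12. Markers of oligodendrocytes (7 of 7 tested), microglia (4 of 6) and astrocytes (5 of 7) were lower in the immunoprecipitate, but their summed levels did not reach 0 there. They stood at 893 to 1411 CPM, 22.1 to 43.6 CPM and 759 to 2508 CPM. Not called were Aif1 (log2 -0.17) and P2ry12 (-0.40) among microglial markers, and Gfap (0.35) and Aqp4 (-0.49) among astrocyte markers. Endothelial markers were higher in it for 3 of 6, with a sum of 7.11 to 191 CPM against 6.62 to 24.6 CPM in the supernatant, although limma voom called 0 of them. Of the 4 markers of GABA and glutamate neurons, Slc17a6 was higher, while Gad2 and Slc32a1 were lower. Orchidectomized male replicate 0 had the highest astrocyte and endothelial sums of the 13 immunoprecipitates. Whether these differences between libraries moved the receptor values was not tested beyond the refits given with each result.

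Kiss1r was 3.41-fold and Npffr1 3.53-fold higher in the immunoprecipitate than in the supernatant, and for each gene the 13 immunoprecipitates all lay above the 13 supernatants. The share of all genes without overlap was not computed, here or for the smaller groups below, so such separation is given as a description only. Prlhr was lower in the immunoprecipitate, with a call that did not hold under several refits, and Npffr2 was near the limit of detection in both fractions. Of 16713 genes tested, 21.3% were called higher and 21.6% lower in the immunoprecipitate at an adjusted p under 0.05 (edgeR quasi-likelihood test, Benjamini-Hochberg adjustment). Of the 4 receptors, 2 were called higher and 1 lower. Ordered by log2 fold change, Npffr1 ranked 215 and Kiss1r 232 of these genes. In bulk samples like these, fewer cells of a type and less RNA per cell cannot be told apart.

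**Figure D1:**
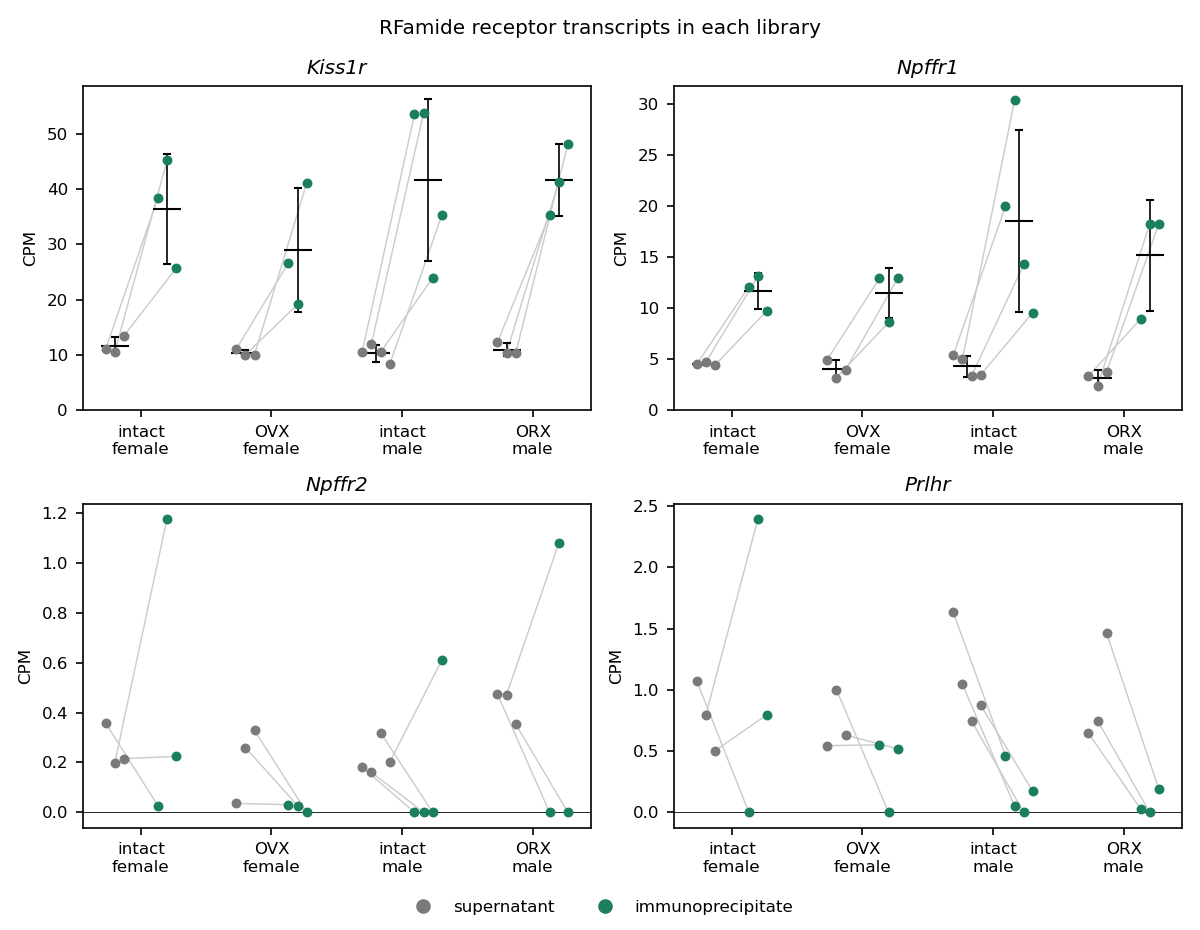
Level of each receptor gene in CPM (linear axes) in 26 libraries, by condition (OVX, ovariectomized; ORX, orchidectomized); grey points are supernatants, green points immunoprecipitates, thin lines join both fractions of a pool, and black bars give the mean ± SD of a group for Kiss1r and Npffr1. Kiss1r and Npffr1 rise along all 13 lines, while Npffr2 and Prlhr stay under 2.5 CPM with several immunoprecipitates at 0.

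Kiss1r, the kisspeptin receptor, lies on mm10 at chr10:79916971-79922273 (plus strand, 3 blocks of exons). In the immunoprecipitates of intact females it stood at 38.4, 45.3 and 25.7 CPM in replicates 0, 1 and 2, and in the matching supernatants at 11.03, 10.5 and 13.5 CPM. In ovariectomized females the immunoprecipitates held 26.7, 19.1 and 41.1 CPM and the supernatants 11.01, 9.99 and 10.03 CPM. In both groups of females the lowest immunoprecipitate was still above the highest supernatant. The intact males gave 53.6, 53.9, 23.98 and 35.3 CPM in the immunoprecipitates of replicates 0 to 3 and 10.6, 11.9, 10.4 and 8.24 CPM in the supernatants. Orchidectomized males gave 35.3, 41.4 and 48.3 CPM against 12.2, 10.3 and 10.2 CPM. The supernatants thus kept within a narrow band in all conditions, and the immunoprecipitates spread widely. Over 13 pools Kiss1r averaged 37.5 ± 11.2 CPM (SD, n = 13) in the immunoprecipitate and 10.8 ± 1.26 CPM in the supernatant, from 701 to 2194 and 269 to 750 counts per library. The fitted enrichment was 3.41-fold (log2 1.77 ± 0.13 SE, 95% interval 1.49 to 2.05, edgeR adjusted p 4.4e-10). Within a pool the ratio of both fractions ran from 1.91 in intact female replicate 2 and ovariectomized female replicate 1 to 5.07 in intact male replicate 0, with a median of 4.00. The former of these pools is the one whose supernatant held most Gnrh1, and this supernatant was also the highest in Kiss1r. Without it, the log2 enrichment over all pools was 1.80.

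Npffr1, the receptor for the peptides from Npvf, lies on the same chromosome at chr10:61595492-61628565 (plus strand, 4 exons). Its immunoprecipitates held 12.1, 13.1 and 9.75 CPM in intact females and 12.9, 8.59 and 12.9 CPM in ovariectomized females. The matching supernatants held 4.47, 4.68 and 4.396 CPM in intact and 4.94, 3.16 and 3.91 CPM in ovariectomized females. The female groups overlapped each other in level and separated fully by fraction. Intact males reached 19.97, 30.4, 14.3 and 9.55 CPM against 5.36, 4.96, 3.32 and 3.45 CPM, and orchidectomized males 8.91, 18.3 and 18.3 CPM against 3.32, 2.31 and 3.76 CPM. Male immunoprecipitates thus spanned 8.91 to 30.4 CPM, with intact male replicate 1 highest, and female ones 8.59 to 13.1 CPM; all lay above every supernatant. Over 13 pools Npffr1 averaged 14.5 ± 6.03 CPM in the immunoprecipitate and 4.00 ± 0.88 CPM in the supernatant, from 305 to 1149 and 85 to 245 counts. The fitted enrichment was 3.53-fold (log2 1.82 ± 0.17 SE, 95% interval 1.47 to 2.17, edgeR adjusted p 1.47e-08). Pool ratios ran from 2.22 in intact female replicate 2 to 7.90 in orchidectomized male replicate 1, with a median of 2.80.

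Both enrichments were called in each refit over all conditions. With the 4 pools numbered 1 to 10 left out, Kiss1r gave a log2 of 1.504 (adjusted p 3.26e-06) and Npffr1 of 1.69 (adjusted p 1.89e-05). With each of the 26 libraries left out in turn, Kiss1r stayed between 1.68 and 1.84 and Npffr1 between 1.73 and 1.89. Gnrh1, the most abundant enriched marker, moved further, from 5.58 over all pools to 4.43 in the later pools alone.

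Kiss1r shares exon sequence with a gene on the other strand, and the library kit did not mark strand. Of 3856 exonic bases of Kiss1r, 247 also lie in exons of R3hdm4 (listed in the table under its older symbol). R3hdm4 averaged 245 ± 28.7 CPM in immunoprecipitates and 229 ± 29.5 CPM in supernatants (log2 0.09, edgeR adjusted p 0.336), so the enrichment of Kiss1r was not seen in this neighbour. An antisense transcript is also annotated across the start of Npffr1 and was not analysed here. R3hdm4 was chosen for its overlap, after its values could be seen.

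The sequence before the start sites of Kiss1r and Npffr1 is shown because these were the 2 receptors that rose together. Both windows of 250 bases upstream of the RefSeq start (GRCm38.p6) were rich in G and C, at 72.8% and 72.0%, against 57.2% for Npffr2 and 62.0% for Prlhr. A GC box, read as GGGCGG on either strand, occurred at 2 places in the Kiss1r window, at 2 in that of Npffr1, at 1 in that of Npffr2 and at none in that of Prlhr. Of 32817 such windows in the RefSeq table, 32.7% held at least 1 GC box. The share with 2 and the G and C content over all windows were not computed. Differences among the 4 receptors are therefore given as a description only. TATAAA, searched on both strands, was in none of the 4 windows and in 12.4% of all windows. The Npffr1 window is given whole, and for Kiss1r the 30 bases with both GC boxes, which also lie in an annotated exon of R3hdm4 on the other strand; capitals mark GGGCGG or its reverse complement, and both runs read 5′ to 3′ on the plus strand.
Npffr1, chr10:61595045-61595294: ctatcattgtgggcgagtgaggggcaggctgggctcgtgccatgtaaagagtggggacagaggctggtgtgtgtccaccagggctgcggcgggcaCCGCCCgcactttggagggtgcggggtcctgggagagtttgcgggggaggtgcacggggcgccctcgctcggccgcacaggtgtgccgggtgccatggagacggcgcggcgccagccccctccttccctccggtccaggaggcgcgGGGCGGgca
Kiss1r, chr10:79916939-79916968: GGGCGGagtctgcagcggcccgGGGCGGgg
These letters describe the windows only; binding was not measured.

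Npffr2, the receptor that prefers neuropeptide FF, lies at chr5:89527429-89583740 (plus strand, 4 exons) and was barely detected. In the immunoprecipitates it had 1, 56 and 9 counts in intact females, 1, 1 and 0 in ovariectomized females, 0, 0, 0 and 25 in intact males, and 0, 52 and 0 in orchidectomized males. Thus 6 of 13 immunoprecipitates were at 0 and 3 held nearly all counts. A count of 0 allows up to 3 counts, or 0.0733 to 0.0877 CPM in those 6 libraries. Supernatants were steadier, at 15, 9 and 12 counts in intact females, 1, 7 and 13 in ovariectomized females, 7, 6, 15 and 11 in intact males, and 22, 22 and 17 in orchidectomized males. Averages were 0.244 ± 0.428 CPM and 0.274 ± 0.126 CPM (SD, n = 13), and the fractions overlapped. The fitted log2 difference was -0.78 ± 0.84 SE (edgeR adjusted p 0.443). With a 95% interval of -2.51 to 0.94, no difference in either direction was detectable in these libraries. The value rested on single libraries. Without orchidectomized male immunoprecipitate replicate 1 it was -2.51 (adjusted p 0.0264), without intact male immunoprecipitate replicate 3 it was -2.21 (adjusted p 0.0282), and limma voom gave -2.05 (adjusted p 0.0183).

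Prlhr, the receptor for prolactin-releasing peptide, is a gene of 1 exon at chr19:60466732-60468304 (minus strand). Its immunoprecipitates held 0, 114 and 32 counts in intact females, 18, 0 and 21 in ovariectomized females, 19, 2, 0 and 7 in intact males, and 1, 0 and 7 in orchidectomized males. The supernatants held 45, 36 and 28 counts in intact females, 15, 27 and 25 in ovariectomized females, 63, 39, 35 and 48 in intact males, and 30, 35 and 70 in orchidectomized males. In CPM the immunoprecipitate was below the supernatant in all 7 male pools and in 3 of 6 female pools. The 4 immunoprecipitates at 0 allow up to 0.0622 to 0.0841 CPM, while intact female replicate 1 reached 2.40 CPM, above every supernatant. Averages were 0.398 ± 0.657 CPM and 0.901 ± 0.341 CPM (SD, n = 13), and over all pools the fractions overlapped. The fitted log2 difference was -1.72 ± 0.65 SE (95% interval -3.06 to -0.39, edgeR adjusted p 0.0362). The call was lost in the pools numbered 11 to 30 alone (log2 -1.80, adjusted p 0.115). It was also lost without any of 7 single libraries, where the log2 stayed between -1.66 and -1.57 and the adjusted p between 0.0503 and 0.0657. These were the immunoprecipitates of intact female replicate 2 and orchidectomized male replicates 0 and 1, and the supernatants of intact female replicate 0, ovariectomized female replicate 1, intact male replicate 0 and orchidectomized male replicate 2. With the pool as a block the log2 was -2.39 for Prlhr (adjusted p 0.0292) and -2.37 for Npffr2 (adjusted p 0.0791).

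Levels of different genes were compared per kilobase of exon in the GENCODE annotation, since the annotation behind the deposited counts is not given in the sources used here. On that scale the immunoprecipitates held Kiss1r at 9.74 ± 2.92, Npffr1 at 4.18 ± 1.73, Prlhr at 0.253 ± 0.418 and Npffr2 at 0.149 ± 0.261 CPM per kb (SD, n = 13). The supernatants held them in the same order, at 2.79 ± 0.33, 1.15 ± 0.25, 0.573 ± 0.216 and 0.167 ± 0.077 CPM per kb. Prlhr and Npffr2 did not differ beyond their spread in the immunoprecipitate. Kiss1r exceeded Npffr1 in each of the 26 libraries. Its level may include reads from the 247 exonic bases shared with the more abundant R3hdm4, and their part in the ratios below was not tested. The ratio of Kiss1r to Npffr1 was 2.46 ± 0.66 in the immunoprecipitates and 2.53 ± 0.62 in the supernatants, so that the balance between the receptor for the stimulating and that for the restraining peptide differed between fractions by less than the spread.

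**Figure D2:**
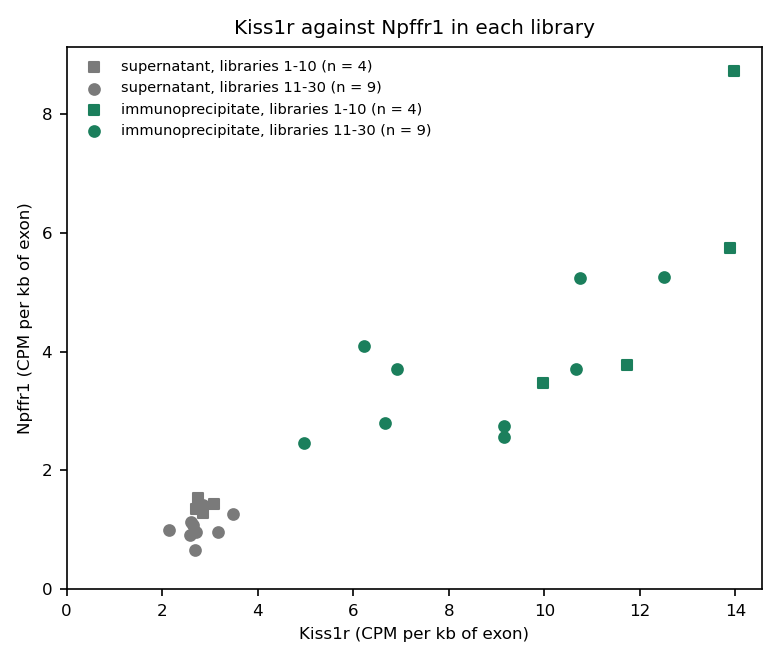
Npffr1 against Kiss1r in CPM per kb of exon, 1 point per library, with immunoprecipitates in green, supernatants in grey, and squares for libraries numbered 1 to 10. The supernatants sit close together below the immunoprecipitates, and the 2 immunoprecipitates highest in both genes are among the 4 with low numbers.

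Across the 13 immunoprecipitates Kiss1r and Npffr1 varied together on the log2(CPM + 1) scale. Pearson's r was 0.695 (permutation p 0.00788, two-sided, adjusted p 0.0394 over the 10 relations computed among the receptors and Gnrh1) and Spearman's rho 0.747 (p 0.00436, adjusted p 0.0346). Without the 2 libraries farthest from the median of Kiss1r, r was 0.744 (adjusted p 0.047). Within the 9 immunoprecipitates numbered 11 to 30, r was 0.563 (exact permutation p 0.117, adjusted p 0.389), and it did not pass there. The 4 numbered 1 to 10 were too few for a value of their own. Gnrh1 divides the immunoprecipitates into separate sets by number, so its relations over all 13, which are among the 10 adjusted for, are not given. Within the 9 later ones r was 0.617 with Kiss1r (exact permutation p 0.0784, adjusted p 0.389; rho 0.55) and 0.713 with Npffr1 (exact permutation p 0.0367, adjusted p 0.367; rho 0.567). Without the 2 libraries farthest from the median of Gnrh1, these were 0.302 and 0.663, and none passed the adjustment. All these libraries went through the same pull-down, and its part in these relations was not tested.

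By label number, Kiss1r and Npffr1 followed Gnrh1 in direction in the immunoprecipitates. Among intact mice Kiss1r stood at 38.4 to 53.9 CPM in the 4 immunoprecipitates numbered 1 to 10 and at 23.98 to 35.3 CPM in the 3 later ones, without overlap. Npffr1 stood at 12.1 to 30.4 CPM and at 9.55 to 14.3 CPM, with overlap. In the supernatants of the same pools Kiss1r was at 10.5 to 11.9 CPM and 8.24 to 13.5 CPM, with overlap. Npffr1 was there at 4.47 to 5.36 CPM and 3.32 to 4.396 CPM, without overlap. Differences by number were not tested for these genes in either fraction, and the ranges are given as a description only. The early pools held 6 or 7 mice and the later intact pools 5, so that number and pool size cannot be told apart here. All gonadectomized pools are among the later numbers.

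Within each condition Kiss1r and Npffr1 were both called higher in the immunoprecipitate, and Npffr2 and Prlhr were called in none (edgeR). The log2 enrichment of Kiss1r was 1.65 ± 0.28 (SE) in intact females, 1.49 ± 0.28 in ovariectomized females, 2.02 ± 0.24 in intact males and 1.93 ± 0.28 in orchidectomized males, with adjusted p from 4.14e-06 to 0.00156. For Npffr1 it was 1.37 ± 0.35, 1.52 ± 0.35, 2.12 ± 0.30 and 2.27 ± 0.35, with adjusted p from 4.88e-05 to 0.0106. In these 4 conditions 10.2%, 2.97%, 14.6% and 5.93% of the genes tested were called higher. Prlhr, with no overlap of fractions in either male group, reached an unadjusted p of 0.0389 in intact males and 0.02 in orchidectomized males, at adjusted p 0.112 and 0.12. DESeq2 called it lower in orchidectomized males (adjusted p 0.0456) and limma voom in intact males (adjusted p 0.0476), and neither tool called Npffr2. The Npffr1 call in ovariectomized females was lost in limma voom (adjusted p 0.0923) and without supernatant replicate 1 of that group (adjusted p 0.0653), and that in intact females with only their own 6 libraries fitted (adjusted p 0.0669). With the later pools alone, which leave 1 pool of intact females, the log2 there was 0.93 for Kiss1r and 1.15 for Npffr1 and neither was called.

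The enrichment itself was not shown to differ between conditions. Of 12 tests (4 receptors, each for ovariectomy, orchidectomy and sex in intact mice), edgeR called 0, with 0 at an unadjusted p under 0.05 and 0 in DESeq2 or limma voom. Over all genes the share called was 0%, 0% and 0.00598%. Without the immunoprecipitate of intact female replicate 2, edgeR called 296 genes for ovariectomy and 95 for sex. In intact males over intact females the log2 enrichment differed by 0.75 for Npffr1 (95% interval -0.21 to 1.71) and by 0.37 for Kiss1r (-0.39 to 1.13). For ovariectomy the differences were -0.16 (-0.97 to 0.66) for Kiss1r and 0.15 (-0.88 to 1.18) for Npffr1, and for orchidectomy -0.09 (-0.85 to 0.67) and 0.16 (-0.81 to 1.12). For these genes the intervals for gonadectomy reach past 1.5-fold in both directions, and those for sex reach past it only toward more enrichment in males. Estimates for Npffr2 and Prlhr ran from -4.19 (Npffr2, ovariectomy) to 0.23, with intervals from -9.57 to 4.55; they rest on groups with libraries at 0 and are not bounds.

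Neither sex nor gonadectomy gave a called difference in any receptor in the immunoprecipitate. Of 16 tests edgeR called 0, with 0 at an unadjusted p under 0.05 and 0 in DESeq2 or limma voom. The background was as low: 0% of 16160 genes for ovariectomy, 0% for orchidectomy, 0.0248% for sex in intact and 0.0186% for sex in gonadectomized mice, with 591, 1509, 664 and 1388 genes at an unadjusted p under 0.05. DESeq2 called 5, 24, 19 and 30 genes and limma voom 0 in each. Mean Kiss1r levels, in order, were 41.7 ± 14.6 CPM in intact males, 41.7 ± 6.47 CPM in orchidectomized males, 36.5 ± 9.93 CPM in intact females and 28.98 ± 11.2 CPM in ovariectomized females. The fitted log2 change of Kiss1r was -0.33 (95% interval -1.06 to 0.39) with ovariectomy and less than 0.01 in size (-0.68 to 0.68) with orchidectomy. Males minus females was 0.19 (-0.49 to 0.87) among intact and 0.52 (-0.20 to 1.25) among gonadectomized mice. Neighbours in this order differed by less than 1 SD.

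Npffr1 had the same order in the immunoprecipitate, at 18.5 ± 8.97 CPM (SD) in intact males, 15.2 ± 5.40 CPM in orchidectomized males, 11.7 ± 1.73 CPM in intact females and 11.5 ± 2.49 CPM in ovariectomized females. Of the 4 intact male pools 3 lay above all intact female pools and replicate 3 below them, and the fitted difference between these groups was 0.67 (95% interval -0.15 to 1.48, adjusted p 0.991). Ovariectomy gave -0.03 (-0.90 to 0.85), orchidectomy -0.29 (-1.10 to 0.52) and sex in gonadectomized mice 0.40 (-0.47 to 1.27). The sign of the ovariectomy and orchidectomy estimates in the immunoprecipitate changed for both genes when the numbering entered the fit. With a term for numbers 1 to 10, ovariectomy gave 0.23 for Kiss1r and 0.50 for Npffr1, and orchidectomy 0.46 and 0.20, none of them called. The data thus give no direction after gonadectomy for either receptor.

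**Figure D3:**
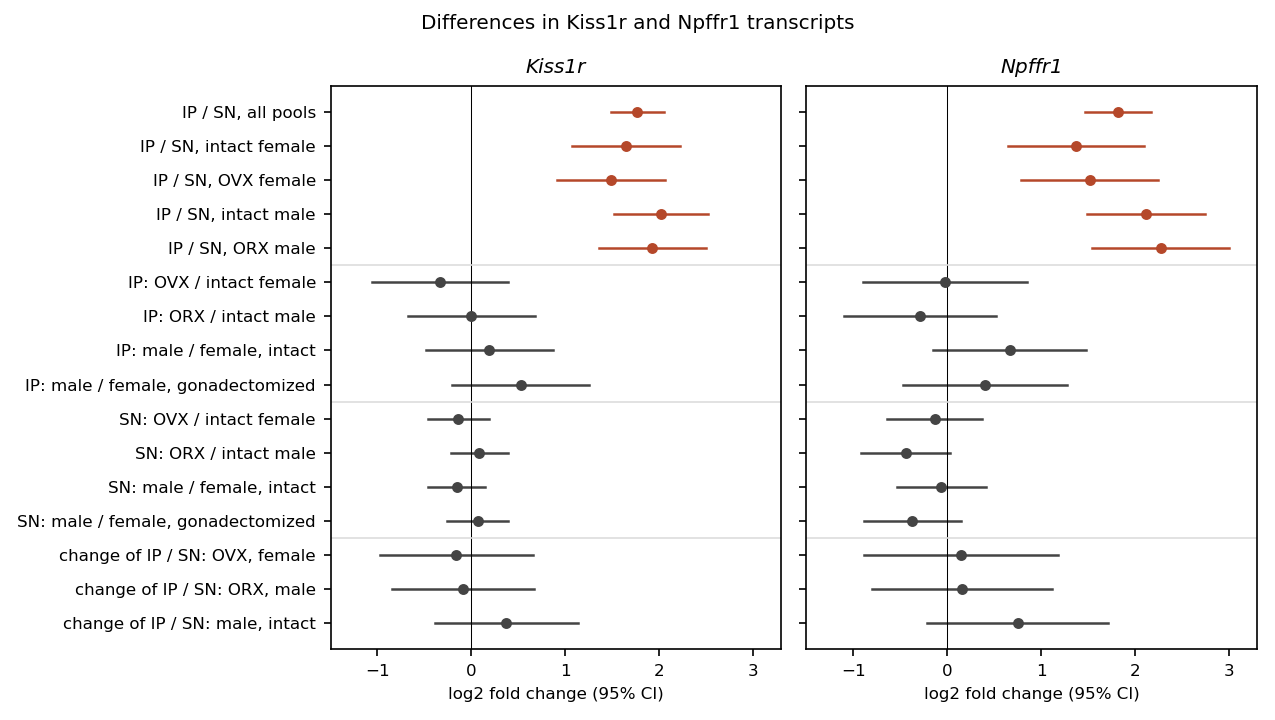
Fitted log2 fold change with 95% interval for Kiss1r and Npffr1 in 16 comparisons (IP, immunoprecipitate; SN, supernatant); red marks an edgeR adjusted p under 0.05. The 5 enrichments at the top, from 1.37 to 2.27, clear 0, and the 11 comparisons of sex and gonad removal below do not.

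In the supernatant the receptors were steadier, and again none of 16 tests was called by edgeR, DESeq2 or limma voom, with 0 at an unadjusted p under 0.05. Of 16360 genes edgeR called 0.0122% for ovariectomy, 0% for orchidectomy (446 genes at an unadjusted p under 0.05), 0.0428% for sex in intact mice and 0.0428% for sex in gonadectomized mice. In that order DESeq2 called 8, 5, 10 and 1257 genes and limma voom 0, 0, 6 and 6. Without the supernatant of ovariectomized female replicate 2, edgeR called 505 genes for ovariectomy in place of 2 and 2893 for sex in gonadectomized mice in place of 7. Kiss1r averaged 11.7 ± 1.59 CPM in intact females, 10.3 ± 0.58 CPM in ovariectomized females, 10.3 ± 1.52 CPM in intact males and 10.9 ± 1.13 CPM in orchidectomized males. Its log2 changes ran from -0.16 to 0.09, and their 95% intervals from -0.46 to 0.39, which in this fit lie within 1.5-fold on both sides. Other settings gave estimates from -0.52 to -0.07 for sex in intact mice and from -0.38 to -0.13 for ovariectomy. For orchidectomy they reached 0.25. The bound therefore holds for the main fit alone. Npffr1 averaged 4.51 ± 0.15, 4.00 ± 0.90, 4.27 ± 1.04 and 3.13 ± 0.74 CPM in the same order. Its lowest estimate was -0.44 with orchidectomy (-0.92 to 0.03). Npffr2 was highest in orchidectomized males, at 0.355 to 0.475 CPM against 0.161 to 0.320 CPM in intact males, without overlap, but the test gave an unadjusted p of 0.0554 and an adjusted p of 1. Prlhr averaged 0.726 to 1.08 CPM over the 4 groups with overlapping ranges.

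Unlike its receptor, the kisspeptin gene Kiss1 was not enriched in the immunoprecipitate and varied strongly with sex and gonadal state. Kiss1 neurons of the preoptic area lie near GnRH neurons and are known to be stimulated by estradiol and to be more numerous in females. Mean Kiss1 levels were 7.27 ± 10.7 CPM in immunoprecipitates and 6.205 ± 8.08 CPM in supernatants (log2 0.01 ± 0.24 SE, edgeR adjusted p 0.985). The supernatants held 19.7, 26.5 and 11.2 CPM in intact females and 3.14, 3.97, 2.09 and 2.24 CPM in intact males. After removal of the gonads they held 4.07, 2.67 and 3.08 CPM in females and 0.864, 0.600 and 0.605 CPM in males. Intact females stood above every other supernatant and orchidectomized males below every other one.

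The fitted log2 difference of Kiss1 between intact males and females in the supernatant was -2.73 ± 0.28 SE (edgeR adjusted p 2.99e-04), and the call was kept under each alternative fitted, with the pools numbered 11 to 30 alone (-2.35, adjusted p 0.0178) among them. Between gonadectomized males and females it was -2.26 ± 0.34 SE (adjusted p 0.0231), a call lost in limma voom (adjusted p 0.138) and without any of 6 single supernatants (adjusted p 0.0507 to 0.272). Those 6 were intact female replicate 0, ovariectomized female replicates 0 and 1 and all 3 of orchidectomized males. With ovariectomy Kiss1 fell by 2.51 (adjusted p 0.00784), a call lost without ovariectomized supernatant replicate 1 (adjusted p 0.152), in limma voom (adjusted p 0.0744), with only these groups fitted (adjusted p 0.0549) and in the later pools alone (-1.77, adjusted p 0.161). With orchidectomy the value was -2.04 and not called (adjusted p 0.285), but DESeq2 called it (adjusted p 3.5e-06), as did edgeR without the supernatant of intact female replicate 2 (adjusted p 0.0345). In the immunoprecipitates the same differences, in this order, were -3.14, -2.14, -3.07 and -2.07, none called by edgeR (adjusted p 0.184 to 0.994). DESeq2 called the difference between intact males and females (adjusted p 2.15e-05) and that with ovariectomy (adjusted p 9.26e-04). Without the immunoprecipitate of orchidectomized male replicate 0, edgeR called the former too (-3.15, adjusted p 0.018). Over the same libraries the ligand gene was highest in intact females, while no difference between conditions was detectable in the receptor gene. Kiss1 overlaps 2 annotated genes on its own strand, and reads of those cannot be told apart from it here.

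**Figure D4:**
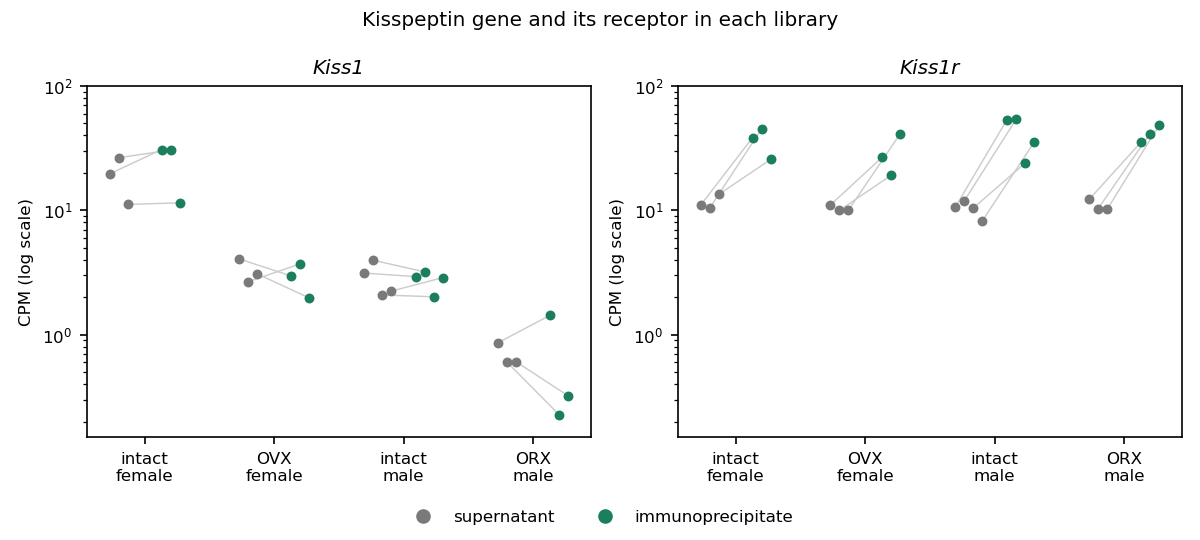
Kiss1 (left) and Kiss1r (right) in CPM on the same log axis in all 26 libraries, by condition (OVX, ovariectomized; ORX, orchidectomized); lines join both fractions of a pool. Kiss1 is highest in intact females and lowest in orchidectomized males in both fractions, while Kiss1r separates by fraction.

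The other RFamide peptide genes were low in both fractions. Neurons that make the Npvf peptides are known to lie in the dorsomedial hypothalamus, outside the punched area. Npvf had at most 28 counts in an immunoprecipitate and was at 0 in 8 of 13 (log2 1.62 ± 1.17 SE, adjusted p 0.261). With at most 6 counts in a supernatant, it passed the filter only through its immunoprecipitates. A call for Npvf could therefore only be higher, and no conclusion is drawn from its log2. Npff averaged 0.330 ± 0.299 CPM and 0.386 ± 0.225 CPM in immunoprecipitate and supernatant (log2 -0.23, adjusted p 0.714), and Qrfp 0.338 ± 0.385 and 0.190 ± 0.177 CPM (log2 0.63, adjusted p 0.50). Prlh had 0 to 5 counts per immunoprecipitate and 1 to 13 per supernatant. Its log2 of -2.27 ± 0.77 SE was called lower (edgeR adjusted p 0.00839), though not in the later pools alone. With a minimum count of 10, Prlh passed the filter only through its supernatants. A call could therefore only be lower, and no conclusion is drawn from it. Qrfpr, the remaining receptor of the family, averaged 2.04 ± 1.92 and 2.58 ± 0.63 CPM (log2 -0.39 ± 0.45 SE, adjusted p 0.51). Its immunoprecipitates ranged from 0 to 7.40 CPM, both extremes in intact females. Of these 6 genes, Kiss1 included, edgeR called 0 higher and 1 lower (Prlh), beside 21.3% and 21.6% of all genes tested. The counts of the 6 were the same at an unadjusted p under 0.05, in DESeq2 and in limma voom.

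Among genes that carry the signal of these receptors, called members went in both directions, and their counts stand beside 21.3% of all genes called higher and 21.6% called lower. For Gq, phospholipase C and their targets, 3 of 21 tested genes rose in the immunoprecipitate and 9 fell, with a median log2 of -0.28 against -0.06 over all genes tested. Those that rose were Prkcd, which encodes a protein kinase C (1.17), and the cation channel genes Trpc7 (1.15) and Trpc4 (0.57). Those that fell most were Trpc1 (-0.92), the protein kinase C gene Prkce (-0.86), Gnaq, which encodes the alpha subunit of Gq (-0.84), and Plcb4 (-0.50), which encodes a phospholipase C. TRPC channels are known as targets of kisspeptin signalling in GnRH neurons.

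For Gi/o and its targets, 2 of 17 rose and 7 fell, with a median of -0.17. The adenylyl cyclase genes Adcy1 (0.85) and Adcy7 (0.66) rose, and Adcy5 (-0.58) and Adcy8 (-0.55) fell with the inwardly rectifying potassium channel genes Kcnj3 (-0.73) and Kcnj6 (-0.60). Of 14 regulators of receptor signalling 3 rose and 5 fell, with a median of -0.17. Rgs17 (0.69), Rgs10 (0.26) and Rgs2 (0.20), which speed the shut-off of G proteins, rose. The receptor kinase genes Adrbk2 (-0.86) and Adrbk1 (-0.75) and the arrestin genes Arrb1 (-0.69) and Arrb2 (-0.40) fell. In the pools numbered 11 to 30 alone, Trpc4, Trpc1, Plcb4, Adcy7, Adcy5, Adcy8, Kcnj3, Kcnj6, Rgs10 and Rgs2 were no longer called. Of these, 7 were also lost without 1 library or another. Their edgeR adjusted p then reached 0.148 for Trpc4 (0.0644 with the pool as a block), 0.109 for Kcnj3, 0.0789 for Rgs10 and 0.0766 for Kcnj6. For Plcb4, Trpc1 and Adcy8 it reached 0.0608, 0.0523 and 0.0511. Of 26 such fits, the call was lost in 19 for Kcnj3, 17 for Kcnj6, 14 for Trpc4 and 7 for Rgs10. It was lost in 2 each for Trpc1 and Adcy8 and in 1 for Plcb4.

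Among receptors for other neuropeptides, 0 of 38 tested genes (41 listed) were called higher by edgeR and 10 were called lower, with a median log2 of -0.51. Over all genes tested, edgeR called 21.3% higher and 21.6% lower. At an unadjusted p under 0.05, 0 of the list were higher and 16 lower, and DESeq2 and limma voom called 0 higher and 11 and 21 lower. In either direction, 8405 of all 16713 genes reached an unadjusted p under 0.05 in edgeR. DESeq2 called 7671 of all genes and limma voom 8491. The lowest were the ghrelin receptor gene Ghsr (-2.74), the melanocortin receptor gene Mc3r (-2.11), Grpr, the receptor of gastrin-releasing peptide (-1.78), and the oxytocin receptor gene Oxtr (-1.31). Mc3r, Grpr and Oxtr were not called in the later pools alone, nor was Grpr without ovariectomized supernatant replicate 2 (adjusted p 0.0511). Kiss1r and Npffr1, at 1.77 and 1.82, lay above the whole range of that list.

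**Figure D5:**
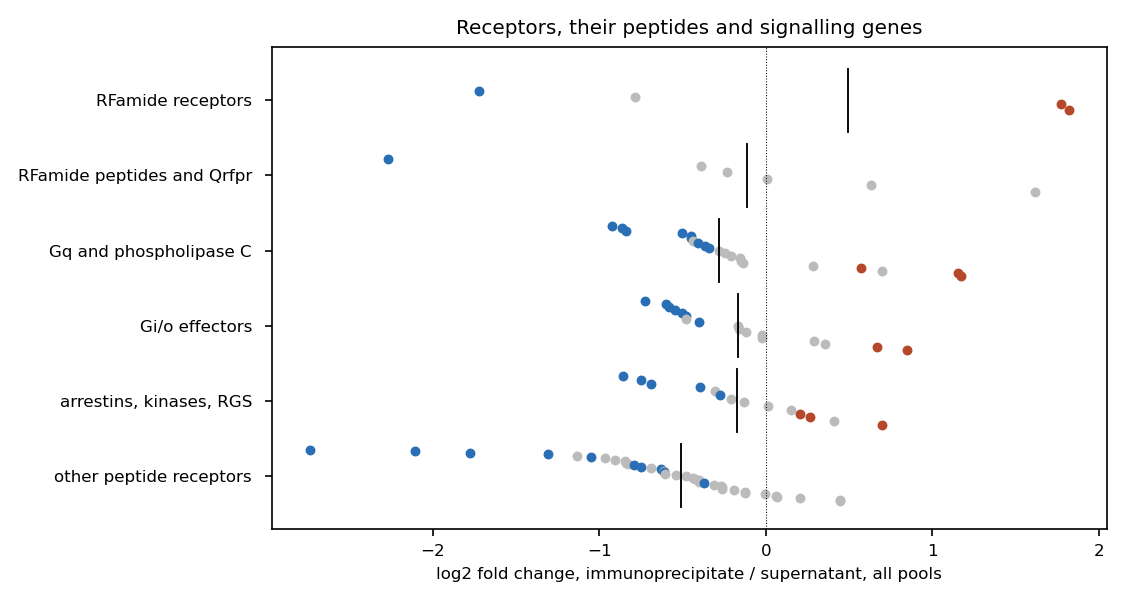
Fitted log2 fold change of immunoprecipitate over supernatant, 1 point per gene, for the 4 receptors, their peptides and signalling genes; red and blue mark genes called higher and lower by edgeR, grey those not called, and black bars the median of a list. The 2 red points of the receptor row are Kiss1r and Npffr1, and the list of other peptide receptors has none.

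The genes whose levels followed a receptor most closely over the 13 immunoprecipitates were named from 11500 genes with at least 5 CPM there, by Pearson's r of log2(CPM + 1), as a description. For Kiss1r they were Mogs (0.905), Arl10 (0.903), Ecel1 (0.900), Tmprss6 (0.892) and Scamp4 (0.889). Of these, Tmprss6, a membrane protease gene, was itself strongly enriched (log2 4.86), Ecel1, a peptidase gene of neurons, less so (0.84), and Arl10 was not called (-0.31, adjusted p 0.061). For Npffr1 they were Angpt1 (0.910), Atf5 (0.879), Ggh (0.867), Kctd8 (0.846) and B4galnt4 (0.844). Angpt1, the gene of a vessel growth factor, was enriched (1.501), Atf5 was not (-0.01, adjusted p 0.961) and B4galnt4 was lower in the immunoprecipitate (-0.46, adjusted p 2.46e-04). The 5 genes most like Kiss1r and the 5 most like Npffr1 had no member in common. These libraries also share the pull-down and differ in depth and label numbering.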

How the data were processed

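RNA of 13 pools, each split into immunoprecipitate and supernatant, was amplified with SMART-Seq v4 and sequenced in pairs, per the labels' protocols. The deposited table holds the authors' estimated counts for 23107 genes in 26 libraries, of which 98.54% of values were whole. The submitters' processing notes name TopHat2 2.0.9, Bowtie2 2.1.0 and Cuffdiff 2.1.1 and the build mm10. How reads shared by genes were counted is not given in the sources used here, nor is the annotation, so values of overlapping genes are uncertain.

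Estimated counts were rounded and tested with edgeR 4.0.16 in R 4.3.3 (TMM, filterByExpr with a minimum count of 10 and total of 15, quasi-likelihood test, two-sided, Benjamini-Hochberg adjustment over all genes tested, called at 0.05). Fractions were compared in 1 fit of all 26 libraries (16713 genes) and conditions within each fraction (16160 and 16360 genes). Alternatives were DESeq2 1.42.0, limma 3.58.1 voom, no filter, a block for the pool or replicate number, a term for library numbering, the later numbers alone, only the groups compared, and leaving out each library. The 2 fractions of a pool come from the same mice, so the numbers pair them; the correlations of their deviations from group means were 0.0146 to 0.17. In simulated data the fits recovered the mean size of known changes, which were added to well-counted genes only. Genes as sparse as Npffr2 and Prlhr were not among them, and no pool or numbering effect was simulated. The share of such changes called between conditions is not given here. No replicate pair agreed within sampling noise (lowest chi-square per degree of freedom 4.51). The main comparison of fractions had no term for the pool, so its 26 libraries were treated as separate, with 1 estimate of spread per gene for both fractions. P-values thus measure the spread between libraries of a group. Counting floors (3 counts for a count of 0) cover counting error only.

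The members and gene lists were chosen with earlier results of these data known. Named genes were the 4 receptors and their peptides, up to 4 genes per list and direction with the largest called change, and the 5 genes most correlated with Kiss1r or Npffr1 among those averaging at least 5 CPM in the immunoprecipitate, predicted genes left out; Gnrh1, R3hdm4 and markers serve as checks. All 137 listed genes were found in the table, 3 of them by an older symbol.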

Additional observations from a re-analysis of the deposited data

Results flagged for a closer look

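In the immunoprecipitates of intact males Npffr2 stood at 0.611 CPM in replicate 3, from 25 counts, while replicates 0, 1 and 2 were at 0. The gap from this library to the nearest of the others exceeded Dixon's 95% critical value for 4 samples. With the other 3 libraries at 0, any count above 0 would have passed, so the usual chance rate of about 1 in 20 groups does not apply. It was the 1 such value among 8 groups of 4 libraries examined, 4 receptors in 2 fractions. Without this library the log2 difference of Npffr2 between fractions was -2.21 in place of -0.78.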

How the results depend on the processing

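The enrichment of Kiss1r and Npffr1 over all pools kept its call in every alternative, with log2 from 1.504 to 1.84 and 1.69 to 1.89. With the replicate block for the pool the values were 1.73 for Kiss1r, 1.78 for Npffr1, -2.37 for Npffr2 and -2.39 for Prlhr, and no call of these 4 changed. Npffr2 became called in limma voom (-2.05) and ranged from -2.51 to -0.63 with single libraries left out. Prlhr lost its call in libraries 11 to 30 alone (-1.80) and ranged from -2.28 to -1.56. These libraries alone gave 4606 called genes between fractions, against 7167.

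No difference between conditions was called for Kiss1r or Npffr1 under any setting, and several estimates near 0 changed sign; the cause was not tested. In the immunoprecipitate, ovariectomy gave 0.18 for Kiss1r and 0.24 for Npffr1 in libraries 11 to 30 alone, 0.23 and 0.50 with the numbering term, and 0.00460 for Npffr1 with the replicate block. Orchidectomy gave 0.48 and 0.35 in the later libraries, 0.46 and 0.20 with the numbering term, and for Kiss1r 0.000858 in DESeq2 and 0.0578 in voom. In the supernatant, ovariectomy gave 0.0934 for Npffr1 with the numbering term, and the replicate block gave -0.00124 for Kiss1r with orchidectomy and 0.0109 for Npffr1 in intact males against females. The change in Kiss1r enrichment was 0.56 with ovariectomy and 0.28 with orchidectomy in the later libraries alone. Kiss1 enrichment was -0.0999 in voom, -0.0974 with the pool block and -0.0118 in the later libraries.

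With 1 library left out at a time, the immunoprecipitate ranges were -0.12 to 0.15 (ovariectomy, Npffr1), -0.18 to 0.15 and -0.49 to 0.0543 (orchidectomy, Kiss1r and Npffr1) and -0.0167 to 0.38 (intact males against females, Kiss1r). Supernatant ranges were -0.0126 to 0.13 (gonadectomized males against females, Kiss1r) and -0.18 to 0.0326 (intact, Npffr1). Changes in enrichment ran from -0.50 to 0.0687 and -0.0399 to 0.33 with ovariectomy and from -0.28 to 0.0575 and -0.0599 to 0.50 with orchidectomy, for Kiss1r and Npffr1. Kiss1 enrichment ran from -0.30 to 0.11.

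Across conditions replicate numbers mark no shared animals, and only supernatants of intact males and females of like number correlated above 0.1 in every pair (0.296 to 0.338); the block for number changed no call of a receptor. Counts of called genes for sex in gonadectomized supernatants went from 7 to 2893 without ovariectomized supernatant replicate 2, 1257 in DESeq2, 1080 with the numbering term and 269 in the later libraries. For ovariectomy in the supernatant they went from 2 to 505 without that library. Without the immunoprecipitate of intact female replicate 2 the count of changes in enrichment went from 0 to 296 with ovariectomy and from 1 to 95 with sex, and the immunoprecipitate count for intact males against females from 4 to 11. Enrichment in intact females went from 3005 to 178 with only those libraries, 27 in the later ones and 1223 to 4930 with 1 library left out. Npffr2 was at 0 in 6 and Prlhr in 4 of 13 immunoprecipitates, which limits what their values can show.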
